A study of Danio rerio with 30 samples.

Results

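Spleens of LPS-treated zebrafish that had been incubated at 32 °C were compared with those incubated at 24 °C by small RNA sequencing. The comparison uses 10 of the 30 libraries of the study, 5 per temperature, chosen by their labels alone. The spleen is the organ in which fish filter blood and mount responses to antigens carried in it, and LPS is a component of the outer membrane of Gram-negative bacteria. Both groups were AB-strain adults 100 days old injected intraperitoneally with 2 µl of LPS from Pseudomonas aeruginosa (50 mg/ml), with the spleen removed 12 h later. They differed in the temperature at which embryos and larvae were kept, 24 or 32 °C. A further LPS group at 28 °C and control groups of 5 libraries each at 24 and 32 °C are cited where they bear on this comparison. The labels give 28 °C for adults without saying whether these are the sampled fish or their parents. Sex, any injection given to controls, and whether each library came from a separate fish were not stated in the labels, so p-values measure the spread between libraries, which may be partly technical.

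MicroRNAs are short RNAs that guide the silencing machinery to matching messenger RNAs, mostly lowering their translation and stability. The let-7 family rises as animals mature and is abundant in differentiated tissue, where it restrains growth-promoting genes. miR-146a is induced through the Toll-like receptor pathway that senses LPS and, in mammals, represses adaptor proteins of that same pathway. Fewer cells of a type and less of a miRNA per cell cannot be told apart in whole spleen.

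Library totals differed. The 24 °C libraries held 961405, 348141, 261435, 926566 and 300299 counts (replicates 1, 2, 3, 6 and 8). The 32 °C libraries held 1960952, 683360, 744066, 5977392 and 1116327 counts (replicates 1, 2, 3, 5 and 7). The geometric mean was 3.07 times higher at 32 °C, with overlapping groups and a two-sided exact permutation p of 0.0635, where 0.00794 is the smallest p that 5 against 5 allows. Deeper libraries were thus mostly those at 32 °C, and the model values with depth taken into account are given beside each called row. When every library was thinned to 199431 counts, 272 ± 62.9 rows were detected at 24 °C and 327 ± 79.5 at 32 °C (SD, n = 5; exact permutation p = 0.254). On the first principal component, which held 29.6% of the variance, 32 °C replicates 5 (51.8) and 7 (30.5) lay at one end and 24 °C replicates 2 (-30.2) and 3 (-33.6) at the other. Markers of blood cells were uneven. The leukocyte miRNA miR-142 held 0 to 0.0563% of counts, with 3264 counts (0.0546%) in 32 °C replicate 5 and 0 in some libraries of both groups. The lymphocyte miRNA miR-150 held 1.07 to 2.35% at 24 °C and 0.482 to 1.496% at 32 °C, with overlap. miR-223, another leukocyte miRNA, held 0.0673 to 0.206% at 24 °C and 0.0275 to 0.480% at 32 °C, highest in 32 °C replicate 5. These are raw shares. On the log2 scale of the model described below, miR-150 differed by 0.06 ± 0.56, gmo-miR-150-5p by 0.12 ± 0.59 and oni-miR-150 by -0.73 ± 0.60 (SE). miR-181a-5p, the most abundant leukocyte row, differed by -0.02 ± 0.53. The rows miR-223 and gmo-miR-223a-3p differed by 0.68 ± 1.73 and 1.65 ± 1.05. Of the 22 tested leukocyte rows, 16 were higher at 32 °C, with a median of 0.54 against 0.69 over all tested rows.

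Of the 364 rows that passed the low-count filter, 2 rose and 0 fell at 32 °C at an adjusted p under 0.05 (0.549% of the rows tested, edgeR's quasi-likelihood test with Benjamini-Hochberg adjustment). The 2 rows were let-7f and miR-146a. At an unadjusted p under 0.05 there were 67 rows (18.4%), 58 of them higher and 9 lower. Of the 67, 22 had 0 counts in all 24 °C libraries and 0 had 0 counts in all 32 °C libraries. A row with 0 counts at 24 °C passes the filter only through other groups, so its small p is no separate support. Only 24 of the 67 were counted in all 10 libraries, 19 of those higher. DESeq2 called 25 rows, 21 higher and 4 lower, and limma voom called 1. The DESeq2 higher calls included rows with 0 counts at 24 °C, whose log2 differences were very large. Examples are ssa-miR-24a-4-5p (22.5), counted in 1 library at 32 °C, and miR-183-5p (20.5), counted in 3. Other DESeq2 higher calls were counted in all 10 libraries. Beside let-7f and miR-146a, these were let-7g, miR-146b, miR-143, miR-16b, miR-26b, miR-122 and oni-let-7e. With libraries scaled by total counts instead of TMM, 4 rows were called, 2 higher and 2 lower. The scaling also sets the middle of the distribution: the median row was 0.69 higher at 32 °C on the log2 scale with TMM, 0.34 higher with RLE scaling and 0.02 higher with total counts. Over the 111 rows counted in all 10 libraries, the median was 0.10 with TMM, -0.17 with RLE scaling and -0.50 with total counts. Log2 differences given here are TMM values from the model, to be read against these medians.

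**Figure D1:**
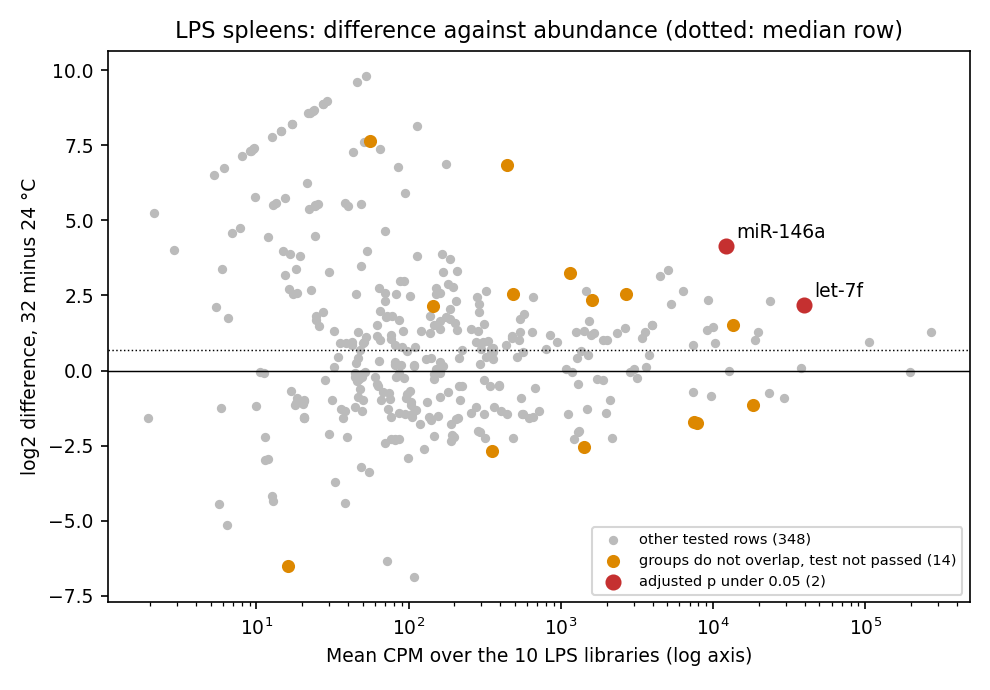
Log2 difference (32 minus 24 °C) of each of the 364 tested rows against its mean CPM over the 10 LPS libraries on a log axis. The dotted line is the median row, 0.69, and the 2 called rows, let-7f and miR-146a, lie above it.

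let-7f, a let-7 paralogue with the same seed as its family members, was higher in every 32 °C library than in any 24 °C library. In CPM (counts scaled to a common library total after TMM), the 24 °C libraries held 15165, 8408, 7705, 26681 and 13579. The 32 °C libraries held 75724, 30474, 62179, 109558 and 47301. The groups did not overlap, and the 28 °C libraries, at 18407 to 45858 CPM, overlapped both groups. Means were 14308 ± 7628 and 65047 ± 30057 CPM (SD, n = 5), a log2 difference of 2.18 ± 0.45 (SE, edgeR adjusted p = 0.00666). As a share of raw counts, which no scaling factor touches, let-7f took 1.06 to 3.16% of the 24 °C libraries and 3.26 to 5.85% of the 32 °C libraries. Without replicate 5 of the 32 °C group the mean there was 53919 ± 19469 CPM (n = 4) and the difference 2.04. The call was lost without 24 °C replicate 3 (2.03, adjusted p = 0.0527), 32 °C replicate 3 (1.90, 0.0661) or 32 °C replicate 7 (1.98, 0.0884), with the direction unchanged in each. With the library total as a covariate the difference was 1.68 (adjusted p = 0.0403), with all libraries thinned to equal totals 1.80 (0.0161), and without the 2 deepest LPS libraries 1.90 (0.0443), so the call held in these 3 alternatives. It was lost with no low-count filter (2.23, 0.103), against a log2 difference of 1 (0.187) and with zebrafish rows only (1.58, 0.0562).

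miR-146a rose by more, and the size rested on few libraries. It stood at 2844, 717, 905, 1082 and 1022 CPM at 24 °C, and at 3954, 4721, 1427, 94431 and 10960 CPM at 32 °C. The groups overlapped, since 32 °C replicate 3 lay below 24 °C replicate 1. The 28 °C libraries ranged from 999 to 4953 CPM. Means were 1314 ± 866 and 23099 ± 40030 CPM (SD, n = 5), a log2 difference of 4.14 ± 0.89 (SE, edgeR adjusted p = 0.00666). miR-146a took 5.04% of the counts of 32 °C replicate 5 and 1.25% of replicate 7, against 0.0905 to 0.505% in the other 8 libraries. Without replicate 5 the mean at 32 °C was 5265 ± 4049 CPM (n = 4), the difference 2.04 and the adjusted p 0.165. Without 24 °C replicate 3, 24 °C replicate 8 or 32 °C replicate 7, the differences were 4.03, 3.52 and 3.57 and the adjusted p 0.0527, 0.0645 and 0.0980. The call was also lost with the library total as a covariate (2.17, adjusted p = 0.205), without the 2 deepest LPS libraries (2.29, 0.150) and with limma voom (2.57, 0.184), and it held at equal totals (3.44, 0.0161). miR-146b, its close relative, was at 342 to 1462 CPM at 24 °C and 557 to 34390 at 32 °C (3.36 ± 0.95, adjusted p = 0.0606), highest in replicates 5 and 7. Without replicate 5 the miR-146b difference was 1.65. A row named after medaka, ola-miR-146a-5p, was at 0 to 36.0 CPM at 24 °C and 43.1 to 3973 CPM at 32 °C, without overlap (adjusted p = 0.123). Replicate 5 was again the highest, but replicate 7 was the lowest at 32 °C. DESeq2 called miR-146b (2.69, adjusted p = 0.0241) and ola-miR-146a-5p (6.08, 0.0241).

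**Figure D2:**
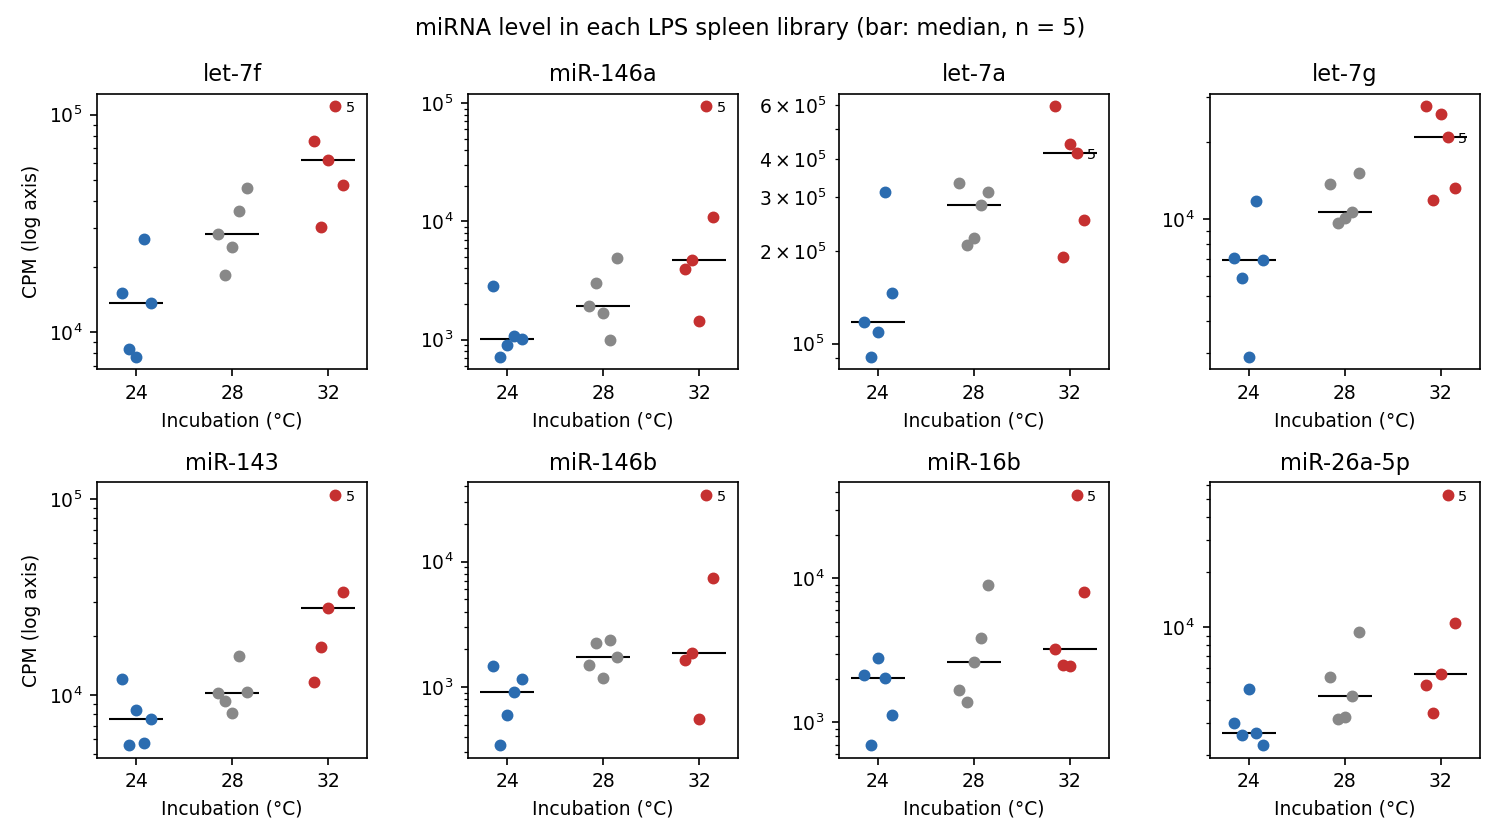
CPM on a log axis of 8 miRNAs in each LPS library at 24, 28 and 32 °C, 5 libraries per temperature, with a bar at the median and 32 °C replicate 5 marked 5. The let-7f points at 24 and 32 °C do not overlap, while the highest miR-146a point at 32 °C is replicate 5 at 94431 CPM.

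Of the zebrafish let-7 rows counted in all 10 libraries, the others had smaller differences than let-7f, and 0 of them passed the adjusted threshold with edgeR. Whether they differ from let-7f was not tested. The zebrafish passenger arms let-7c-3p and let-7d-3p had 0 counts at 24 °C and were counted in 4 and 3 libraries at 32 °C (adjusted p = 0.116 and 0.130). Tested passenger-arm rows named after other species went the other way. hsa-let-7d-3p, counted in 2 libraries at each temperature, differed by -6.48 ± 2.85 (edgeR adjusted p = 0.195). gmo-let-7h-3p, pol-let-7a-3p and ssa-let-7a-4-3p differed by -1.51 ± 1.81, -1.55 ± 2.26 and -0.97 ± 2.34. let-7a, the most abundant zebrafish let-7 row, was at 90575 to 313101 CPM at 24 °C and 192337 to 595731 CPM at 32 °C (1.298 ± 0.34, adjusted p = 0.0598). let-7g was at 7069, 5899, 2908, 11813 and 6957 CPM at 24 °C and at 27656, 11944, 25690, 20987 and 13288 CPM at 32 °C, without overlap (1.52 ± 0.42, adjusted p = 0.0606). let-7h, let-7d-5p and let-7c-5p differed by 1.34 ± 0.43, 1.27 ± 0.42 and 1.02 ± 0.39 (adjusted p = 0.102, 0.1097 and 0.130). let-7i and let-7j differed by 1.26 ± 0.68 and 1.02 ± 0.88. Of the tested let-7 rows named after other species, oni-let-7e and hsa-let-7b-3p were counted in all 10 libraries. oni-let-7e was at 49.1 to 254 CPM at 24 °C and 638 to 1227 CPM at 32 °C, without overlap (2.56 ± 0.91, edgeR adjusted p = 0.118). DESeq2 called oni-let-7e (2.24, adjusted p = 0.000569) and let-7g (1.28, 0.0250). hsa-let-7b-3p differed by -1.59 ± 1.21 (edgeR adjusted p = 0.547). mmu-let-7j also did not overlap (2.16 ± 1.59, edgeR adjusted p = 0.537). let-7b stood at 26262 to 67985 CPM at 24 °C and 19079 to 81320 CPM at 32 °C (0.10 ± 0.43, adjusted p = 0.938), and its sign turned with the scaling. The ratio of let-7f to let-7b counts, which needs no scaling, was 0.577, 0.312, 0.278, 0.392 and 0.410 in the 24 °C libraries and 0.931, 1.13, 1.69, 5.74 and 1.53 in the 32 °C libraries. These ratios did not overlap, but let-7f and let-7b had the largest and smallest differences among these zebrafish rows, so a separation was likely beforehand. In controls the same ratio was 0.209 to 1.98 at 24 °C and 0.813 to 20.5 at 32 °C, with overlap. In the LPS libraries the ratio of let-7f to let-7a counts was 0.0709 to 0.129 at 24 °C and 0.127 to 0.261 at 32 °C, and here the groups overlapped. In RefSeq's zebrafish annotation (GRCz12tu), let-7f lies within 10000 bases of a let-7a gene, and let-7b within that distance of another. Near-identical paralogues can share reads, and how the counting divided them is not stated in the labels, so each let-7 value carries that uncertainty.

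**Figure D3:**
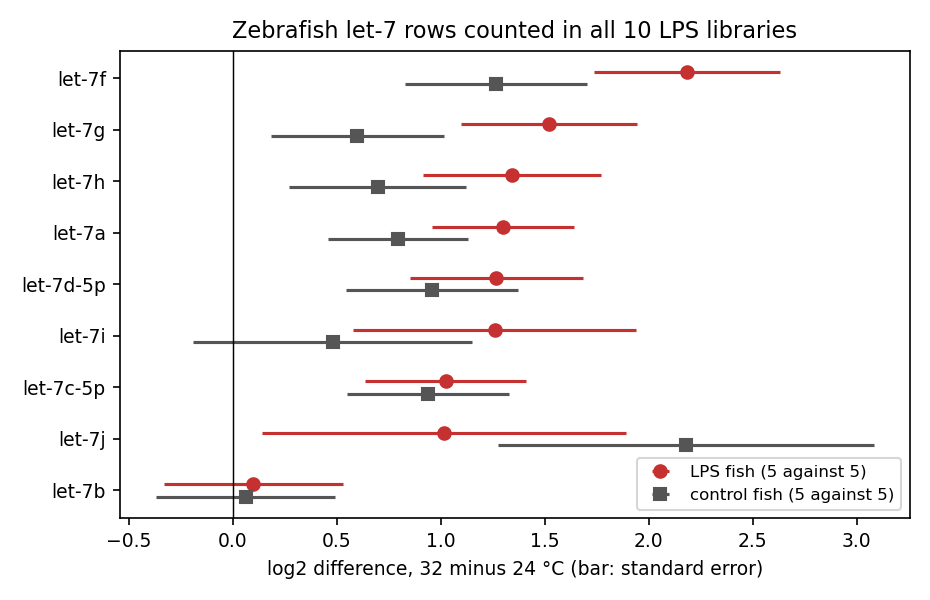
Log2 difference (32 minus 24 °C) with its standard error for each zebrafish let-7 row counted in all 10 LPS libraries, in LPS fish (circles) and control fish (squares), 5 against 5. let-7f shows the largest LPS difference among these rows, 2.18, and let-7b the smallest, 0.10.

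Apart from let-7 and miR-146, the rows with the smallest p-values did not pass the threshold with edgeR. miR-143, a smooth-muscle miRNA, stood at 12127, 5548, 8421, 5727 and 7536 CPM at 24 °C and at 11623, 17535, 27860, 105922 and 33803 CPM at 32 °C (2.32 ± 0.66, adjusted p = 0.0606). miR-16b, which represses cell-cycle genes, was at 692 to 2810 CPM and 2477 to 38286 CPM (2.63 ± 0.75, adjusted p = 0.0606). miR-26a-5p and miR-26b, repressors of the histone methyltransferase ezh2, differed by 2.35 ± 0.70 and 2.55 ± 0.79 (adjusted p = 0.0737 and 0.0937), with no overlap for miR-26b. In each of these rows the highest library was 32 °C replicate 5, and without it miR-16b was at 1.24, miR-26a-5p at 1.04 and miR-26b at 1.32. DESeq2 called miR-143, miR-16b and miR-26b (1.87, 1.98 and 2.02, adjusted p = 0.0497, 0.0467 and 0.0497), but not miR-26a-5p. The vascular and stromal list that holds miR-143 went both ways, with 17 of 24 tested rows higher at 32 °C. miR-145-3p and miR-126b-3p differed by 3.23 ± 1.36 and 2.22 ± 0.76, both highest in 32 °C replicate 5. Without 1 library they ranged from 2.29 to 3.82 and from 0.75 to 2.40, and miR-143 from 1.61 to 2.34. Without 32 °C replicates 5 and 7, miR-145-3p was at 1.94, miR-126b-3p at 0.28 and miR-143 at 1.46. miR-145-5p, miR-214 and miR-199-5p differed by -0.995 ± 1.71, -2.24 ± 1.72 and -1.29 ± 0.84. The liver miRNA miR-122 was at 339 to 2075 CPM at 24 °C and 458 to 33818 CPM at 32 °C, where replicate 7 was the highest (3.16 ± 1.04, adjusted p = 0.1097), and without that library the difference was 0.36. DESeq2 called miR-122 (2.85, adjusted p = 0.0394). The part of liver RNA in the other values of 32 °C replicate 7 was not tested. The abundant miR-21 and miR-92a-3p differed by 0.96 ± 0.47 and -0.04 ± 0.50 (adjusted p = 0.267 and 0.976), and miR-21 was at 0.37 without 32 °C replicate 5.

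Groups did not overlap in 9 rows that were higher at 32 °C (2.47% of rows tested) and 6 that were lower (1.65%). Some of these rows lay near 0 counts. miR-27b-5p, counted in 1 library at 24 °C, separated only as 2.57 against 2.73 CPM. A count of 0 allows 3.12 to 11.5 CPM in the 24 °C libraries (3 counts, before TMM). chr12_6501 was counted in 1 library at 32 °C, at most 0.940 CPM against at least 2.57 CPM at 24 °C. ola-miR-146a-5p and mmu-let-7j were counted in 2 and 4 libraries at 24 °C. Of the 15 rows, 14 had the same sign in controls, against 80 of the 87 rows counted in all 20 LPS and control libraries. These are unlike sets, since some of the 15 rows, such as miR-27b-5p and chr12_6501, are not among the 87. Several rows that were lower are named after human miRNAs and were chosen for description after their values were seen. hsa-miR-7977 stood at 2459, 2898, 1882, 2688 and 2137 CPM at 24 °C and at 797, 700, 159, 197 and 232 CPM at 32 °C (-2.53 ± 0.76, adjusted p = 0.0737). hsa-miR-1260a and hsa-miR-1260b differed by -1.73 ± 0.61 and -1.75 ± 0.61 (both adjusted p = 0.116), with levels so alike that they may share reads. Without 24 °C replicate 8 they were at -1.09 and -1.16. gmo-miR-125a-5p, a let-7 companion named after cod, stood at 25042 ± 1359 CPM at 24 °C and 11381 ± 6228 CPM at 32 °C (-1.14 ± 0.47, adjusted p = 0.152). The zebrafish row miR-125a had means of 29162 and 17328 CPM (-0.75 ± 0.49, edgeR adjusted p = 0.445). Companions went both ways, with miR-100-5p at 1.53 ± 0.76 and miR-125c-5p at -2.06 ± 1.02. hsa-miR-7977 and gmo-miR-125a-5p were the 2 rows called lower with total-count scaling, and DESeq2 also called hsa-miR-7977, hsa-miR-1260a and hsa-miR-1260b. The division of counts among kinds of row name also differed between the groups. Rows with zebrafish names held 83.8, 79.8, 73.6, 84.3 and 74.9% of counts at 24 °C and 91.96, 85.8, 92.4, 90.4 and 91.5% at 32 °C, without overlap. Rows named after other species held 14.0 ± 3.29% at 24 °C and 7.23 ± 1.79% at 32 °C, again without overlap, and rows named by chromosome held 6.67 ± 2.87% and 2.37 ± 1.73% (SD, n = 5), which did overlap. In controls, zebrafish names held 80.6 ± 5.42% at 24 °C and 90.7 ± 2.11% at 32 °C.

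**Figure D4:**
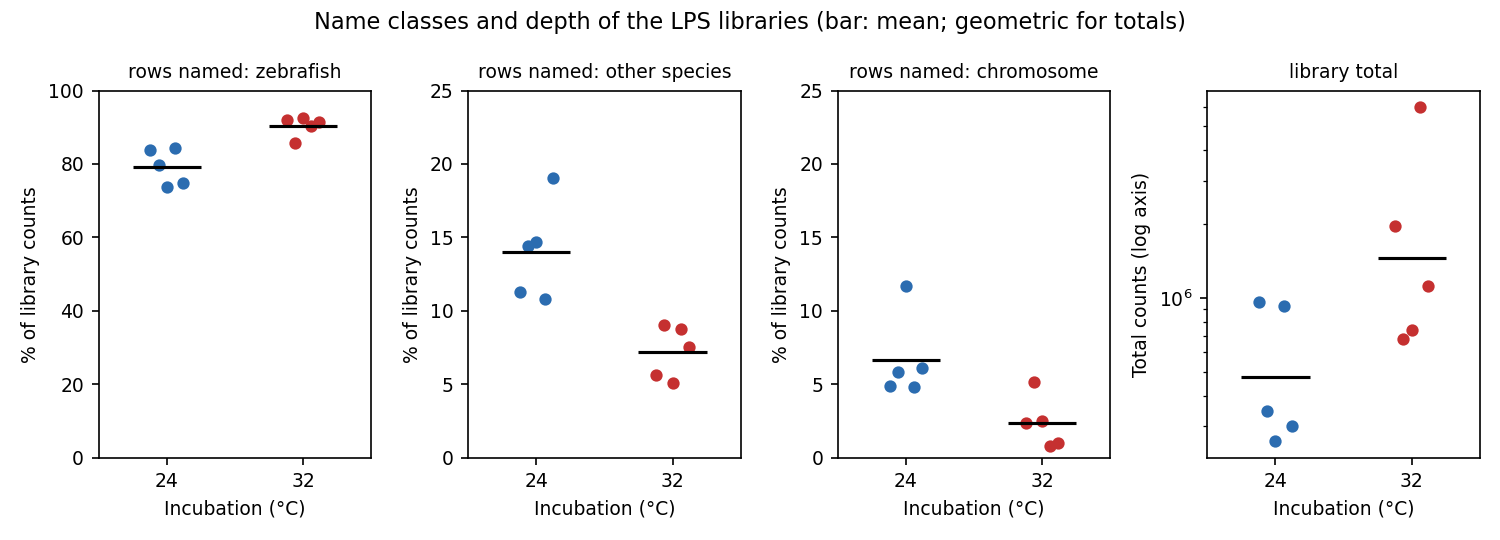
Percent of counts in rows with zebrafish, other-species and chromosome names, and library totals on a log axis, in the LPS libraries at 24 and 32 °C (bar: mean, geometric for totals). Zebrafish names held 79.3 ± 4.95% at 24 °C and 90.4 ± 2.68% at 32 °C.

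By family list, inflammation-induced miRNAs had 1 of 15 tested rows called, miR-146a, against 2 of 364 rows (0.549%) in all, and a median log2 difference of 1.82 against 0.69 over all rows. let-7 and its companions had 1 of 33 called, let-7f, with a median of 1.02. The other 17 lists had 0 rows called by edgeR. Among them, the medians were 0.54 for 22 leukocyte rows, 1.112 for 24 vascular and stromal rows, 0.55 for 18 rows of the miR-17-92 group, 2.12 for 9 miR-15/16 rows and 2.45 for 8 rows that repress epigenetic enzymes. Larger medians came from short lists: 8.15 for 3 striated muscle rows, 4.58 for 3 neural rows and 3.89 for 6 miR-10 rows. The 1 liver row was at 3.16, and 5 red cell and thrombocyte rows had a median of 2.63. The 4 interferon-linked rows, such as miR-462, had a median of 1.34 with 0 at an unadjusted p under 0.05, against 18.4% of all rows. With 4 rows, 0 cannot be told apart from that rate. A positive median over rows did not mean a larger share of counts: leukocyte rows held 3.94 ± 1.49% of counts at 24 °C and 2.58 ± 0.569% at 32 °C, and the miR-17-92 group 25.2 ± 8.04% and 17.02 ± 10.8% (SD, n = 5, not tested). Some lists rest on rows absent from one group: all 22 tested rows with 0 counts at 24 °C had an unadjusted p under 0.05, and 0 of them passed after adjustment. Such rows passed the low-count filter only through other groups, so their small p is no support for a rise. Some were counted in only 1 library at 32 °C, such as ssa-miR-24a-4-5p. miR-155, a miRNA of activated leukocytes, was spread over rows of several names. The zebrafish row reached at most 2.57 CPM at 24 °C and 304 CPM at 32 °C, while hsa-miR-155-5p was present in 4 of the 24 °C libraries and all 5 at 32 °C, with means of 88.5 and 559 CPM (adjusted p = 0.516). Marker lists of other tissues and of blood cells were uneven between libraries. The liver list held 0.0501 to 0.219% of counts at 24 °C and up to 3.86% in 32 °C replicate 7, and the red cell and thrombocyte list held 2.01% in 32 °C replicate 5 and at most 0.495% elsewhere. Pancreas rows were highest in 24 °C replicates 1 and 2 (0.945 and 0.902%), and gut and epithelium rows in 32 °C replicate 7 (0.318%), 24 °C replicate 2 (0.246%) and 32 °C replicate 5 (0.196%). Striated muscle rows held 0 to 0.0333% at 24 °C and 0.0125 to 0.104% at 32 °C. Their part in the results was not tested.

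Whether the temperature difference was the same without LPS was tested as an interaction. In controls, 3 of 364 rows were called for 32 minus 24 °C (0.824%), namely miR-143, miR-16b and miR-126b-3p. Their control libraries at 32 °C were widely spread, at 58652 ± 90619, 14564 ± 15000 and 10039 ± 9637 CPM (SD, n = 5). Whether these control calls hold without single libraries was not tested. let-7f was 1.26 ± 0.44 higher in controls and miR-146a 3.01 ± 0.84 higher, and neither was called there. The interaction called 0 of 364 rows (0%), and 28 rows (7.69%) had an unadjusted p under 0.05. DESeq2 called 19, of which 17 were rows absent from a group, and voom called 1. For let-7f the interaction was 0.92 ± 0.61 (edgeR adjusted p = 0.997), and for miR-146a 1.13 ± 1.106. The smallest interaction p belonged to miR-375, a miRNA of pancreatic islets. It stood at 8385, 7142, 295, 1537 and 654 CPM at 24 °C and 175, 1289, 119, 763 and 1461 CPM at 32 °C with LPS, a difference of -2.24 ± 0.91. In controls it was 1.90 ± 0.90 higher at 32 °C. The interaction was -4.14 ± 1.28 (edgeR adjusted p = 0.391), which did not pass, while DESeq2 called it (-4.22, adjusted p = 0.00932). Its level with LPS at 24 °C was highest in replicates 1 and 2. The pancreas list, which includes miR-375, was highest in the same libraries, so its share is not separate evidence. The next smallest were the muscle miRNAs miR-206-3p, present in 2 of the 24 °C and 3 of the 32 °C LPS libraries, and ccr-miR-133a-3p, present in 0 and 2 (both edgeR adjusted p = 0.391). DESeq2 called both. Over the 87 rows counted in all 20 LPS and control libraries, 80 had the same sign in both treatments, with Pearson r = 0.862 and Spearman rho = 0.875 across rows, a description with no test. Control totals also differed, at 282356 to 603137 counts at 24 °C and 199431 to 7584818 at 32 °C. Rows of the same miRNA under several names are not independent. The part of depth and scaling in this agreement was not tested.

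**Figure D5:**
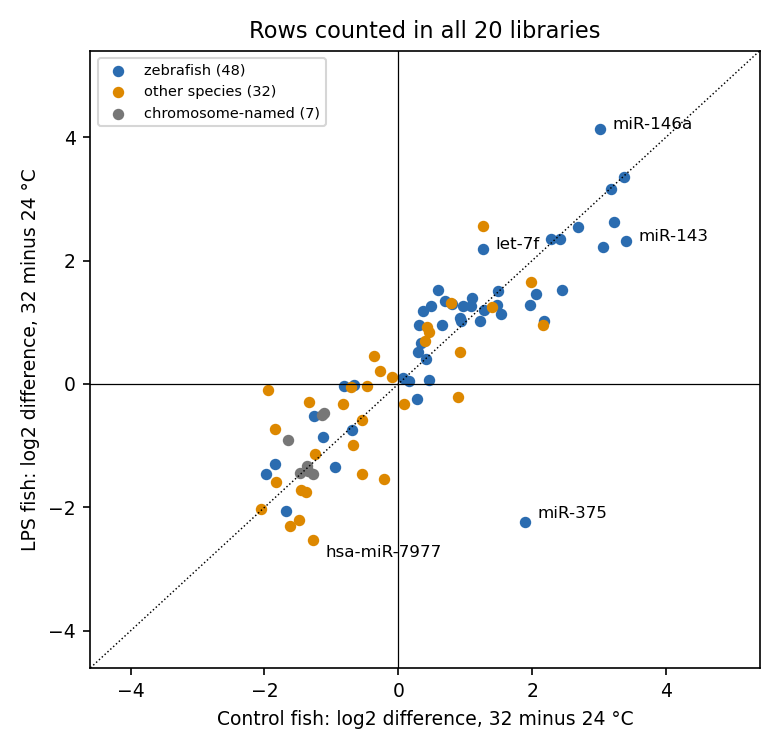
Log2 difference (32 minus 24 °C) in LPS fish against that in control fish, for the 87 rows counted in all 20 libraries, coloured by name class. Of these rows, 80 have the same sign in both treatments.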

How the data were processed

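The authors deposited one table of counts, unnormalized whole numbers with one line per miRNA and one column per library. Per the labels' protocols, 50 ng of RNA and 22 PCR cycles were used for each library. Tools listed in the submitters' processing notes, with no role given, include cutadapt 1.12 and bcl2fastq. Aligner, counting tool, genome build and miRNA reference: not given in the sources used here. Whether PCR copies were removed is not recorded, and a count of 0 allows up to 3 counts (counting error only).

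edgeR 4.0.16 (filterByExpr on 6 groups, TMM, robust quasi-likelihood, one mean per group over all 30 libraries, 24 residual degrees of freedom) gave each difference, with Benjamini-Hochberg adjustment over 364 of 8866 rows and a threshold of 0.05. The common biological coefficient of variation was 1.79. Alternatives included DESeq2 1.42.0 and limma 3.58.1 voom; scripts were tested on simulated data in R 4.3.3.

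None of the 20 replicate pairs held near-identical counts (lowest chi-squared per degree of freedom 143). The members and lists were chosen with earlier results of these data known. Named rows were the called ones, the 5 smallest p, the 4 smallest p of each list, the 3 smallest interaction p and the 10 most abundant. Rows whose groups did not overlap and the remaining let-7 rows were added after their values were seen. Alternatives were computed for these rows where counted in at least 8 of the 10 libraries, a criterion also added after seeing the data.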

Additional observations from a re-analysis of the deposited data

Results flagged for a closer look

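In 44 groups of 5 libraries, 33.3% of those examined, one library lay apart from the other 4. The gap exceeded Dixon's critical value of 0.71, which chance exceeds in about 1 in 20 groups of independent, normally distributed values. The values here were not transformed, and the groups share libraries and counts, so 33.3% cannot be set against that rate. Most of the 44 flags, 24, fell on 32 °C replicate 5. It held the highest CPM of miR-146a (94431), miR-146b (34390), miR-143 (105922), miR-145-3p (6201), miR-126b-3p (31500.4), miR-16b (38286), miR-16c-5p (9351), miR-16a (473), miR-26a-5p (52935) and miR-26b (15751). It was also highest for miR-22a-3p (39979), miR-22b-3p (146.3), miR-144-5p (8472), ssa-miR-144-5p (3791), miR-451 (24957), miR-21 (341420), miR-462 (16978), oni-miR-462 (39268), miR-731 (10176), miR-30e-5p (1314), gmo-miR-223a-3p (8096) and mmu-let-7j (342). Its library total of 5977392 and its share of red cell and thrombocyte miRNAs, 2.01% of counts, were flagged as well.

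In 32 °C replicate 7, miR-122 (33818 CPM), the liver list (3.86% of counts) and the gonad and embryo list (0.0125%) stood apart. let-7b was at 81320 CPM in 32 °C replicate 1, and the leukocyte list held 3.59% of counts in 32 °C replicate 2.

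At 24 °C, replicate 1 stood apart for miR-146a (2844 CPM), miR-22a-3p (10123) and miR-30e-5p (106.5), and replicate 6 for let-7a (313101), let-7b (67985) and miR-92b-3p (2465). Replicate 8 stood apart for hsa-miR-1260a (25351), hsa-miR-1260b (25307), miR-1 (247) and the striated muscle list (0.0333% of counts). Replicate 3 stood apart for chr13_7690 (63000.4 CPM), the epigenetic list (0.821%) and the miR-30 list (4.93%), and replicate 2 for the neural list (0.0462%) and the gonad and embryo list (0.0747%). What sets these libraries apart was not tested.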

How the results depend on the processing

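let-7f kept its direction in all 26 alternatives run and its call in 20 of them (1.51 to 2.54). miR-146a kept its direction in 26 and its call in 17 (1.501 to 4.14). Beside 2 rows called, DESeq2 called 25 (21 higher, 4 lower), the 10 LPS libraries alone 4, all higher, total-count scaling 4 (2 higher, 2 lower), and voom, a test against a log2 difference of 1, zebrafish rows only, and leaving out the 2 deepest LPS libraries 1 each. Some of the DESeq2 higher calls were rows with 0 counts at 24 °C, and others, such as let-7g and miR-146b, were counted in all 10 libraries. With the library total as covariate 1 was higher and 1 lower. Leaving out 1 library gave 0 to 4 calls: 0 without 24 °C replicate 3 or 32 °C replicate 7, and 4 without 24 °C replicate 6. Without 32 °C replicates 5 and 7, added after seeing the data, let-7a, let-7f and let-7g were the 3 rows called, and miR-146a was at 1.501 (adjusted p = 0.325). The interaction called 19 rows with DESeq2, 17 of them absent from a group, and 1 with voom. The library total ratio was 2.16 to 3.71 without 1 library, and 3.66 without 24 °C replicate 1 (exact permutation p = 0.0476).

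Replicate numbers 1, 2 and 3 occur at both temperatures, and deviations of same-numbered libraries correlated at 0.0551, 0.124 and 0.00285. The 24 °C replicates 1 and 2 correlated best with their own number, and replicate 3 with 32 °C replicate 7 (0.0831). What the numbers stand for is not stated in the labels. These correlations cannot settle whether same-numbered libraries are paired. The replicate block called 2 rows, let-7a and let-7f, with miR-146a at 2.54 (adjusted p = 0.248).

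Signs turned for rows that were not called. let-7b was at -0.17 with DESeq2 and with RLE scaling, -0.23 at equal totals, -0.52 with total-count scaling, -0.031 with voom, -0.027 without the 2 deepest libraries, -0.45 with zebrafish rows only, and -0.37 to 0.45 without 1 library. miR-92a-3p was at 0.20 with no filter, 0.0502 in the 10 LPS libraries, 0.23 with the block, 0.11 without the 2 deepest, -0.44 to 0.30 without 1 library and 0.62 without replicates 5 and 7. miR-451 was at -0.46 with the covariate, -0.575 with the block, -0.32 with voom, -0.82 to 1.74 without 1 library (lowest without 32 °C replicate 5), -0.60 without replicates 5 and 7, and -0.84 without the 2 deepest. With the covariate, miR-21 was at -0.016, miR-22b-3p at -1.31, miR-731 at -0.40 and oni-miR-462 at -0.37. Without replicates 5 and 7, miR-122 was at -0.20, miR-22b-3p at -0.56, miR-462 at -0.23, gmo-miR-223a-3p at -0.15 and oni-miR-462 at -0.088. miR-22b-3p was at -0.0245 with voom, miR-462 at -0.0041 to 1.499 without 1 library (lowest without 32 °C replicate 5), and miR-22b-5p at 1.16 with the block and -0.98 to 0.54 without 1 library (highest without 24 °C replicate 6). The cause was not tested.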
